A study of Homo sapiens with 7 samples.

Results

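The NKL subclass is a branch of the homeobox genes, which encode transcription factors that bind DNA through a homeodomain. Expression of its 45 members listed here was examined in 7 Hodgkin lymphoma (HL) cell lines, which are U-HO1, SUP-HD1, L-540, L-428, L-1236, KM-H2 and HDLM-2. The members were taken from a list of gene names, not from their levels, and every probe set annotated to a member alone was used. Of the 45 members, 35 were measured, by 49 of the 54675 probe sets of the array, and no probe set was shared between a member and another gene. BARHL2, BSX, DBX1, DBX2, HMX3, LBX2, NKX2-4, NKX2-6, NOTO and VAX1 had no probe set of their own and were not analysed here. In all, 19775 genes were measured.

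Each line was profiled once, on 1 Affymetrix HG U133 Plus 2.0 array of total RNA, and the labels give a cell line for every sample and no treatment. A line stands for the tumour cells of a single patient grown in culture, so the lines differ in origin as well as in state. One label spells HDLM-2 as HDML-2. The arrays came from 2 laboratories and the lines are not assigned to them, so laboratory and line cannot be told apart. Expression is given as the log2 level of a probe set, on which a difference of 1 is a 2-fold difference. Precision is limited by the number of arrays, since a single array per line leaves no replicate and no test between lines. As a measure of technical spread, the SD among probe sets reading 1 gene was pooled over 5050 genes and came to 0.54, which gives 0.76 for the difference of a pair of values. A difference above 0.76 is called beyond the spread, which is a mark of 1 SD and not a test. For a gene with several probe sets, the level is that of the probe set highest on average. The background of an array was the 95th percentile of its 107 olfactory receptor probe sets, which read genes that blood cells do not use. A member was called active in a line where its level exceeded this background, which was 4.86 in HDLM-2, 4.84 in KM-H2, 5.59 in L-1236, 4.75 in L-428, 4.51 in L-540, 4.49 in SUP-HD1 and 4.59 in U-HO1.

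The label of the cells was set against markers of the Hodgkin/Reed-Sternberg cell, the tumour cell of HL. All 10 markers were active in 5 of the lines, with 8 in L-1236 and 9 in SUP-HD1. The exceptions were TRAF1 and MSC, below background in L-1236 at 4.97 and 5.03, and TNFRSF8, which encodes the HL marker CD30 and had a level of 4.36 in SUP-HD1. Their summed level ran from 78.1 to 98.9. Of 6 stromal cell markers 1 or 2 were active per line, with a summed level of 24.0 to 28.4. COL1A1 was active in all 7 lines, at 6.01 to 6.71, and COL1A2, DCN and PDGFRB in 1 line each. COL3A1 and LUM were below background in every line. The sums cover 10 and 6 genes and cannot be compared with each other. Of all genes, 43.5% to 58.8% were active per line and 34.6% in all 7. Of the genes every cell uses, the 8 measured were active in all lines. The arrays of L-1236 and U-HO1 stood apart from the others. The SD between probe sets was 0.67 in L-1236, 0.82 in U-HO1 and 0.41 to 0.45 elsewhere. In U-HO1 the 3′ probe set of ACTB exceeded the 5′ probe set by 2.11, against 0.06 to 0.54 elsewhere, and the 18S rRNA probe set had a level of 11.12, against 5.23 to 7.06.

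NKL homeobox genes pattern the embryo, and most of them are known from the nervous system, the face and limb, the heart, the gut or the pancreas. A small number of them, among them HHEX and HLX, take part in the development of blood cells, and several others are known as oncogenes in T-cell leukaemia when a rearrangement switches them on. Many of the proteins carry a short motif that recruits corepressors of the TLE family.

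In each line the share of active genes among the measured NKL homeobox genes was below the share among all genes. In HDLM-2, 6 of the 35 members were active (17.1%), beside 53.4% of all genes. KM-H2 had 7 active members (20.0%, all genes 54.1%) and L-1236 had 6 (17.1%, all genes 43.5%). In L-428 the number was 9 (25.7%), beside 56.0% of all genes. L-540, SUP-HD1 and U-HO1 had 12 active members each (34.3%), beside 57.9%, 58.8% and 57.4% of all genes. The median of the mean level was 4.16 over members and 5.18 over all genes, and the part of this lower level in the shares was not tested. A smaller share of cells with transcripts and less RNA per cell cannot be told apart in such bulk samples.

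**Figure D1:**
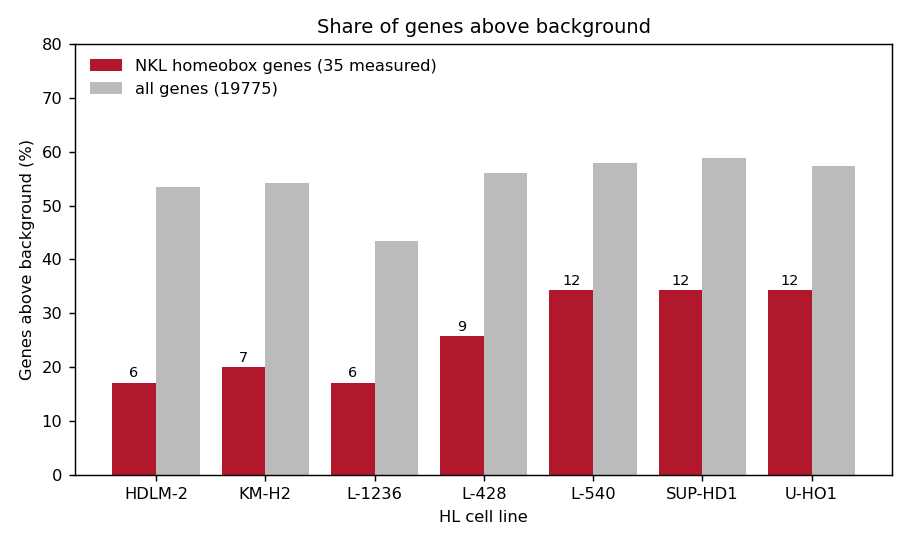
Share of genes above background (vertical axis, percent) in each HL cell line (horizontal axis), with red bars for the 35 measured NKL homeobox genes and grey bars for all 19775 genes. The number above a red bar is the count of active members, from 6 in HDLM-2 and L-1236 to 12 in L-540, SUP-HD1 and U-HO1, and each red bar is shorter than the grey bar beside it.

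Over the 7 lines, 21 of the 35 members were active in at least 1 line (60.0%), beside 73.3% of all genes. Activity in every line was seen for 3 members (8.57%), HMX1, NKX2-5 and BARHL1, beside 34.6% of all genes. Activity in a single line was seen for 4 members, EN1, HLX, NKX2-1 and NKX6-1 (11.4%), beside 8.38% of all genes, although a second probe set of NKX2-1 was above background in another line. The remaining 14 members were below background in every line, namely BARX1, DLX3, DLX5, DLX6, EMX2, EN2, HMX2, LBX1, MSX2, NKX2-2, NKX2-3, TLX3, VAX2 and VENTX. Of these, BARX1 came closest, at -0.13 relative to background in SUP-HD1, and EMX2 stayed farthest, at -1.76 or less. Many of the active members were only just above background, since 9 of the 21 exceeded it by less than 1 in every line. A level at least 1 above background in at least 1 line was reached by 12 members (34.3%), beside 59.3% of all genes. By this stricter rule HDLM-2 had 0 active members, beside 42.8% of all genes, L-1236 and L-428 had 1 each, beside 27.1% and 43.1%, U-HO1 had 2, beside 45.9%, KM-H2 and SUP-HD1 had 4 each, beside 42.8% and 45.8%, and L-540 had 5, beside 45.7%. Of the 64 calls of a member in a line, 31 held under each background level tried, and these belonged to 16 members. The same share over all genes was not computed, so this count describes the members alone.

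**Figure D2:**
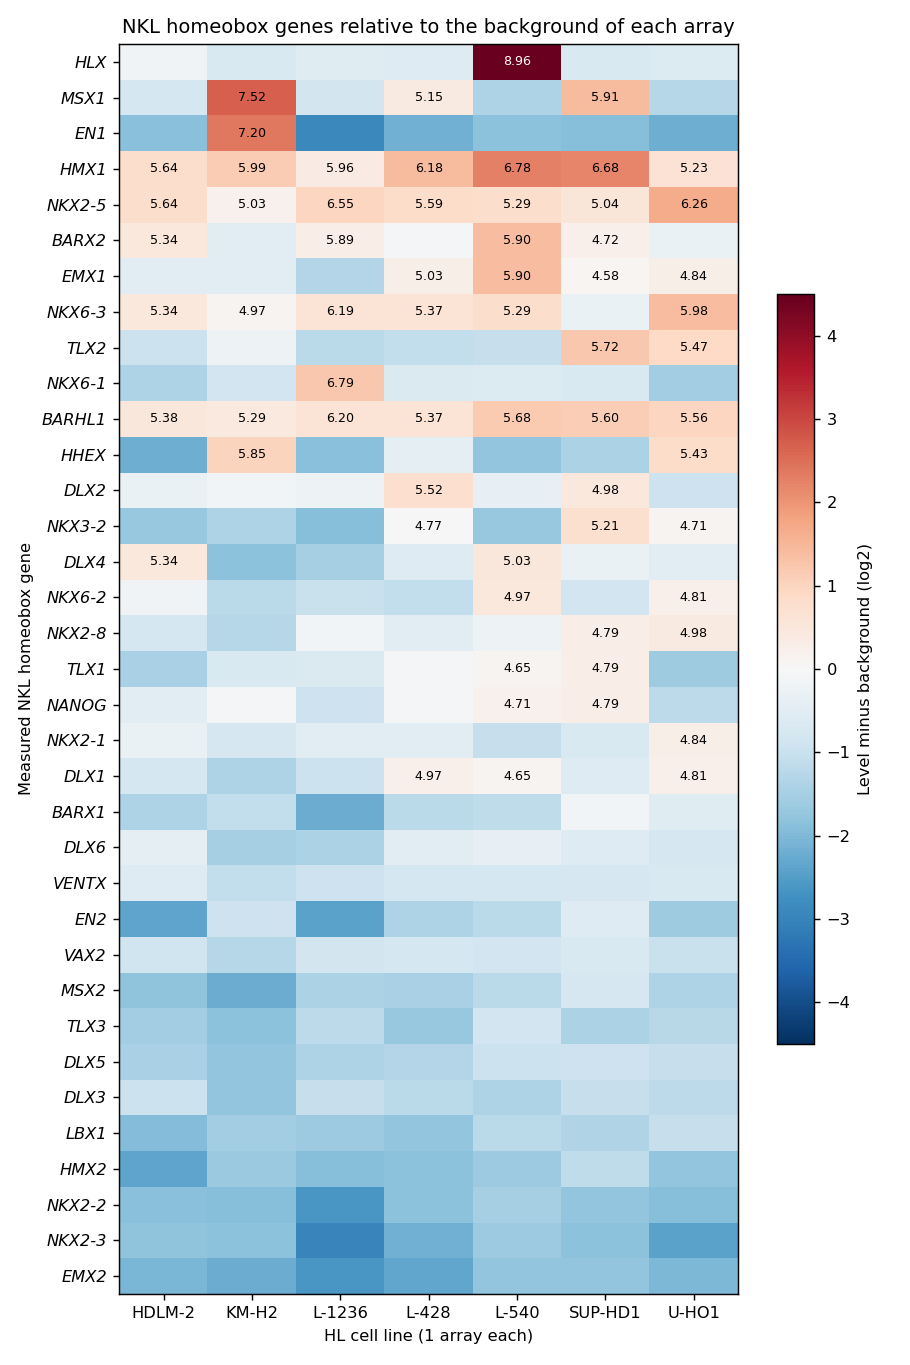
Level minus background (colour, log2) of the 35 measured NKL homeobox genes (rows) in the 7 HL cell lines (columns, 1 array each), with red above and blue below the background of that array. Numbers are printed where a member was active and give its log2 level, so the 14 rows without numbers are the members below background in every line, and HLX in L-540 at 8.96, MSX1 in KM-H2 at 7.52 and EN1 in KM-H2 at 7.20 stand out.

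HLX, EN1 and NKX6-1 were each active in a single line and far below that level in the other lines. HLX, a regulator of blood cell and T helper cell development, had log2 levels of 4.69 in HDLM-2, 4.15 in KM-H2, 5.05 in L-1236, 4.16 in L-428, 8.96 in L-540, 3.82 in SUP-HD1 and 3.96 in U-HO1. L-540 stood alone, 3.91 above the next line and 4.45 above its background, while the other 6 lines were below background. Against the highest background among the other lines, the HLX level of L-540 was 3.37 higher. EN1, which sets the boundary between midbrain and hindbrain in the embryo, had levels of 2.97 in HDLM-2, 7.20 in KM-H2, 2.70 in L-1236, 2.58 in L-428, 2.65 in L-540, 2.58 in SUP-HD1 and 2.38 in U-HO1. KM-H2 was 4.23 above the next line and 2.36 above its own background, and the other lines were all more than 1 below theirs. NKX6-1, a factor of pancreatic beta cells and motor neurons, had levels of 3.48 in HDLM-2, 3.99 in KM-H2, 6.79 in L-1236, 4.10 in L-428, 3.91 in L-540, 3.82 in SUP-HD1 and 3.03 in U-HO1. L-1236 was highest, 2.69 above L-428 and 1.20 above its own background. The NKX6-1 level of L-1236 was 1.93 above the highest background of the other lines. Each of these 3 calls held under every background level tried, and each rests on a single probe set (214438_at for HLX, 220559_at for EN1 and 221366_at for NKX6-1). In L-1236 low-level genes as a group lay 0.25 above their mean over the lines, and the part of this shift in the NKX6-1 level was not tested.

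MSX1 and HHEX were active in more than 1 line. MSX1, a factor of face and limb development that is also counted among the NKL genes of lymphoid progenitors, had levels of 4.06 in HDLM-2, 7.52 in KM-H2, 4.77 in L-1236, 5.15 in L-428, 3.11 in L-540, 5.91 in SUP-HD1 and 3.32 in U-HO1 at probe set 205932_s_at. KM-H2 was highest, 1.61 above SUP-HD1, which is beyond the spread, while SUP-HD1 and L-428 differed by 0.76, which is not. L-1236 was below its background, and so were HDLM-2, L-540 and U-HO1. The second MSX1 probe set, 228473_at, was below background in every line, from 3.63 in SUP-HD1 to 4.60 in L-428, with 4.38 in KM-H2. The SD between the MSX1 probe sets was 0.96, above the pooled 0.54 from which the spread was taken. As the mean of its probe sets, MSX1 was at 5.95 in KM-H2 and 4.77 in SUP-HD1. HHEX, which acts in blood stem cells and early B-cells, had levels of 2.67 in HDLM-2, 5.85 in KM-H2, 3.71 in L-1236, 4.36 in L-428, 2.72 in L-540, 3.06 in SUP-HD1 and 5.43 in U-HO1 at 215933_s_at. KM-H2 and U-HO1 were the active lines and differed by 0.42, within the spread, and U-HO1 was 1.07 above L-428. The other HHEX probe set, 204689_at, was above background in the same lines, at 5.75 in KM-H2 and 4.77 in U-HO1, and the SD between the HHEX probe sets was 0.27. In KM-H2 the HHEX call was lost with the 99th percentile as background, while in U-HO1 it held under all levels tried.

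**Figure D3:**
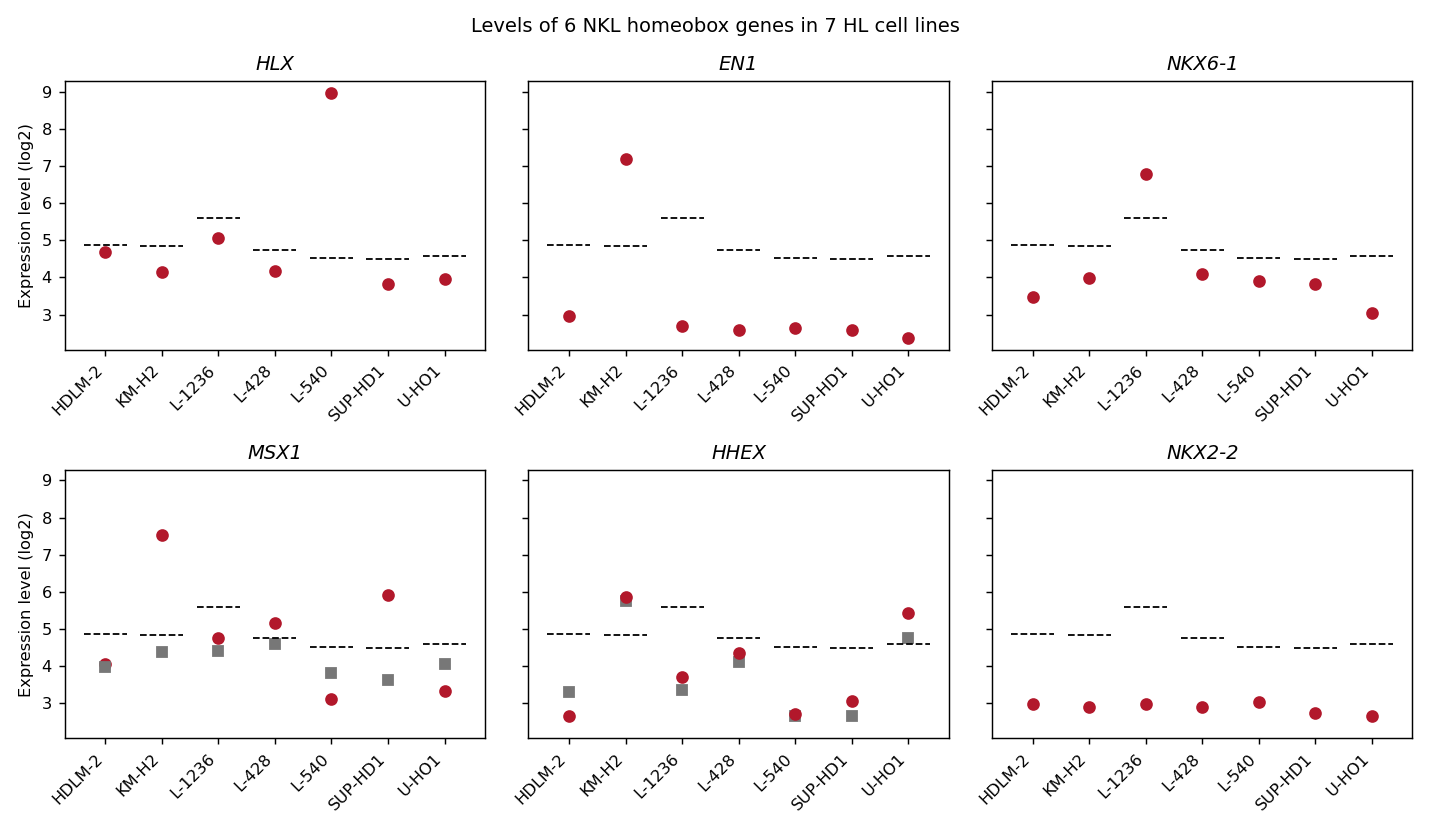
Log2 levels (vertical axes, same scale) of HLX, EN1, NKX6-1, MSX1, HHEX and NKX2-2 in the 7 HL cell lines (horizontal axes). Red circles mark the probe set that gave the level, grey squares any further probe set, and each dashed bar shows the background of that array. HLX rises above background in L-540 alone, EN1 in KM-H2 alone and NKX6-1 in L-1236 alone, the grey MSX1 squares stay below background while the HHEX squares follow the circles, and NKX2-2 stays below background throughout.

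NKX2-2, a factor of ventral neural progenitors and of the pancreas and the gene at the centre of the study, was not active in any of these lines. Its levels were 2.97 in HDLM-2, 2.91 in KM-H2, 2.97 in L-1236, 2.90 in L-428, 3.03 in L-540, 2.73 in SUP-HD1 and 2.67 in U-HO1. The level closest to background, in L-540, was -1.48 relative to it, and the whole range was 0.36. NKX2-3, which acts in the spleen and gut, was likewise below background, at 3.05 in HDLM-2, 2.61 in L-1236, 2.58 in L-428, 2.87 in L-540, 2.65 in SUP-HD1 and 2.19 in U-HO1, with KM-H2 just under HDLM-2. VENTX, known from blood progenitors and myeloid cells, ran from 3.73 to 4.65 and was at most -0.57 relative to background. Thus of the 6 measured members with a role in blood cells, 4 were active in at least 1 line, HHEX, HLX, MSX1 and NKX6-3, beside 73.3% of all genes, and NKX2-3 and VENTX were not.

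The promoters of 5 of these genes are shown because their calls differ: HLX and NKX6-1 were active in a single line, HHEX in 2 and MSX1 in 3, and NKX2-2 in none. EN1 is not in the promoter table. Each run holds the 250 bases upstream of the transcription start in RefSeq (GRCh38.p14), 5′ to 3′ on the strand of the gene, with TAAT or its reverse complement ATTA in capitals, the core that most homeodomains bind. The regions are chr1:220879193-220879442 (plus strand) for HLX, chr4:84499293-84499542 (minus strand) for NKX6-1, chr10:92689705-92689954 (plus strand) for HHEX, chr4:4859415-4859664 (plus strand) for MSX1 and chr20:21522690-21522939 (minus strand) for NKX2-2.
HLX: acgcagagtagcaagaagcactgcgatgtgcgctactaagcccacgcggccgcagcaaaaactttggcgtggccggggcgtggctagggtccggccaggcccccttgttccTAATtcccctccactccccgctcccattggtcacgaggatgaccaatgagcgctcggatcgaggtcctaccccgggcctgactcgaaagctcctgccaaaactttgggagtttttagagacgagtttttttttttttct
NKX6-1: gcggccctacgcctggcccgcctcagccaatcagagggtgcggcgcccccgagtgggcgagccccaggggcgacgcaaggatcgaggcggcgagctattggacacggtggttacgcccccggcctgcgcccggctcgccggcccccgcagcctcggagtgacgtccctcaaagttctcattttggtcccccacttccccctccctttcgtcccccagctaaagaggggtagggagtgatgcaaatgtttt
HHEX: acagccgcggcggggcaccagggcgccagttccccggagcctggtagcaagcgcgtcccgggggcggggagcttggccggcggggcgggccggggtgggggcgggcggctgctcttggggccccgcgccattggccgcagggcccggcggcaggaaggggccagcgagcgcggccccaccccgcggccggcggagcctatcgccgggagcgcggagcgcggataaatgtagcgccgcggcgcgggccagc
MSX1: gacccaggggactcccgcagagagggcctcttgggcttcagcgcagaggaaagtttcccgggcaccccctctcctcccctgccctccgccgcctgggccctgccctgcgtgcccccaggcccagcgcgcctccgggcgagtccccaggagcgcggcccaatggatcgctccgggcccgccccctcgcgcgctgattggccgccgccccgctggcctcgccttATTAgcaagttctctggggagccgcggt
NKX2-2: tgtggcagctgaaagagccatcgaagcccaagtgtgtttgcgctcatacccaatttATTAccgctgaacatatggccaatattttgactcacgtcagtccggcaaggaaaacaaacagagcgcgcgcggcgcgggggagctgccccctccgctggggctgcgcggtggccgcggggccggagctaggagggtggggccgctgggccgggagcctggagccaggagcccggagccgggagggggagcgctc
The core occurred once in the promoters of HLX, MSX1 and NKX2-2 and not in those of HHEX and NKX6-1. CG dinucleotides numbered 18 in HLX, 23 in NKX6-1, 38 in HHEX, 24 in MSX1 and 22 in NKX2-2.

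The promoter table held 31 of the 45 members among 27305 promoters in all. Their median was 19 CG dinucleotides in 250 bases, against 11 over all promoters and 1 over the 312 olfactory receptor promoters, and their median GC content was 66%, against 58%. The 14 promoters of members active in at least 1 line had a median of 20 CG dinucleotides (4 to 40), and the 9 of measured members active in no line also had a median of 20 (10 to 45). On either strand, TAAT was present in 16 member promoters (51.6%), beside 48.2% of all promoters. CACTTNA, a core bound by NK2 factors such as NKX2-2, was present in 2 (6.45%), beside 8.84%, and TATAAA was also present in 2 (6.45%), beside 11.1%. These shares describe the letters in the window and not binding.

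HMX1, NKX2-5 and BARHL1 were active in every line, with ranges of 0.91 to 1.55 between lines. Each rests on a single probe set. For HMX1 this is 207353_s_at, so HMX1 was not measured when probe sets with the suffix _x_at or _s_at were left out. HMX1, a factor of the eye and of cranial ganglia, had levels of 5.64 in HDLM-2, 5.99 in KM-H2, 5.96 in L-1236, 6.18 in L-428, 6.78 in L-540, 6.68 in SUP-HD1 and 5.23 in U-HO1. No neighbouring pair in this order differed beyond the spread, and the whole range was 1.55. NKX2-5, the heart factor that is also activated in T-cell leukaemia, had levels of 5.64 in HDLM-2, 5.03 in KM-H2, 6.55 in L-1236, 5.59 in L-428, 5.29 in L-540, 5.04 in SUP-HD1 and 6.26 in U-HO1. L-1236 and U-HO1, the arrays that stood apart in quality, held its highest levels, and their part in this order was not tested. BARHL1, a factor of the inner ear and cerebellum, had levels of 5.38 in HDLM-2, 5.29 in KM-H2, 6.20 in L-1236, 5.37 in L-428, 5.68 in L-540, 5.60 in SUP-HD1 and 5.56 in U-HO1. Its levels were within 0.91 of each other. Under every background level tried, HMX1 stayed active in 4 lines, NKX2-5 in 5 and BARHL1 in 4. Of the stromal markers, COL1A1 was above background in all lines in the same flat manner, at 6.01 to 6.71.

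NKX6-3, a gene of the stomach lining that the study counts among the NKL genes of B-cells, was active in 6 lines. Its levels were 5.34 in HDLM-2, 4.97 in KM-H2, 6.19 in L-1236, 5.37 in L-428, 5.29 in L-540, 4.18 in SUP-HD1 and 5.98 in U-HO1 at 1552885_a_at, so SUP-HD1 was the line below background. The second probe set, 1552884_at, gave another order, with 4.57 in HDLM-2, 4.38 in KM-H2, 4.40 in L-1236, 4.43 in L-428, 4.71 in L-540, 4.79 in SUP-HD1 and 3.73 in U-HO1. There SUP-HD1 was highest, and L-540 and SUP-HD1 were the lines above background, so L-540 was the line in which both probe sets were. The study names this gene and MSX1 and HHEX, which is why all their probe sets are given.

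Of the remaining nervous system genes with a level at least 1 above background, TLX2, a factor of enteric neurons, had levels of 3.90 in HDLM-2, 4.60 in KM-H2, 4.37 in L-1236, 3.66 in L-428, 3.46 in L-540, 5.72 in SUP-HD1 and 5.47 in U-HO1. SUP-HD1 and U-HO1 were active and differed by 0.25, and U-HO1 was 0.87 above KM-H2. The second TLX2 probe set was highest in SUP-HD1 too, at 4.18, but below background in all lines. EMX1, a factor of the cerebral cortex, had levels of 4.36 in HDLM-2, 4.38 in KM-H2, 4.26 in L-1236, 5.03 in L-428, 5.90 in L-540, 4.58 in SUP-HD1 and 4.84 in U-HO1 at 215265_at. L-540 was 0.87 above L-428, and the other lines followed without a step beyond the spread. The second EMX1 probe set, 215264_at, was above background in L-1236 alone, at 5.87, and had 3.56 in L-540, so the probe sets of EMX1 did not show the same highest line. Of the 14 measured nervous system members, 8 were active in at least 1 line, beside 73.3% of all genes, with 2 in HDLM-2, beside 53.4%, and 6 in U-HO1, beside 57.4%. NKX2-8 and NKX6-2, factors of the developing foregut and of glial cells, exceeded background by 0.39 and 0.46 at most, both with U-HO1 among their active lines, and NANOG, a factor of pluripotent stem cells, by 0.30 at most, in SUP-HD1.

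Of TLX1, TLX3, NKX2-1 and NKX2-5, which are rearranged or switched on in T-cell leukaemia, 3 were active in at least 1 line, beside 73.3% of all genes, and NKX2-5 alone by 1 or more, beside 59.3%. TLX1, needed for the spleen, had levels of 3.39 in HDLM-2, 4.15 in KM-H2, 4.93 in L-1236, 4.71 in L-428, 4.65 in L-540 and 4.79 in SUP-HD1, and U-HO1 was lowest, at -1.59 relative to its background. It exceeded background in L-540 and SUP-HD1, by 0.30 at most, while the highest level, in L-1236, was below the background of that array. NKX2-1, the thyroid and lung factor, showed the same: its highest level was 5.09 in L-1236, below background, and the call was made in U-HO1 at 4.84. Its second probe set, 211024_s_at, was highest in L-428, at 4.86, and above background there alone. Neither gene was active under every background level. TLX3 was at most -0.85 relative to background, in L-540.

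Of the 10 members known from face, limb and skeleton, 5 were active in at least 1 line, DLX1, DLX2, DLX4, BARX2 and NKX3-2, beside 73.3% of all genes. BARX2, a factor of muscle and epithelia, had levels of 5.34 in HDLM-2, 4.38 in KM-H2, 5.89 in L-1236, 4.71 in L-428, 5.90 in L-540, 4.72 in SUP-HD1 and 4.29 in U-HO1. L-540 and L-1236 were 0.01 apart, and no step in the order was beyond the spread. The other 4 exceeded background by less than 1 in every line, with the highest levels at 4.97 for DLX1 and 5.52 for DLX2 in L-428, 5.34 for DLX4 in HDLM-2 and 5.21 for NKX3-2 in SUP-HD1. DLX1 and DLX2 are neighbours on chromosome 2, and both were highest in L-428, where both were active. The second DLX1 probe set was highest in L-428 as well, at 5.59, while the second DLX2 probe set was highest in KM-H2, at 5.38. NKX2-1 and NKX2-8, close together on chromosome 14, were both active in U-HO1, by 0.25 and 0.39. Both had their highest level in L-1236, where they were below background, at -0.50 and -0.11 relative to it. L-1236 was also the highest line of 22.9% of all genes. The other adjacent pairs, TLX1 with LBX1, DLX4 with DLX3 and DLX6 with DLX5, were active together in no line.

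DLX6 was below background in every line at the probe set used for its level, yet another of its probe sets was not. Probe set 242940_x_at had 2.53 in HDLM-2, 2.26 in KM-H2, 2.67 in L-1236, 2.46 in L-428, 2.52 in L-540, 2.38 in SUP-HD1 and 5.42 in U-HO1. The antisense transcript DLX6-AS1 of the same locus had 2.90 in HDLM-2, 3.28 in KM-H2, 3.55 in L-1236, 2.82 in L-428, 2.95 in L-540, 2.58 in SUP-HD1 and 5.25 in U-HO1. Both were above background in U-HO1 alone. The other 2 DLX6 probe sets stayed below background, with 3.82 and 3.70 in U-HO1, so the signal cannot be assigned to DLX6 or to its antisense partner from these values. The quality of the U-HO1 array stood apart, and its part in these levels, and in those of HHEX and TLX2 in U-HO1, was not tested.

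Probe sets of the same member did not always show the same highest line. Of the 12 members with 2 or more probe sets, 5 had the same highest line at each, DLX1, DLX4, HHEX, MSX2 and TLX2. Those of MSX2 were all highest in L-1236 and all below background in every line. In 3 members, DLX1, HHEX and NKX6-3, all probe sets were above background in a shared line. The same shares over all genes with several probe sets were not computed, so these counts describe the members alone. For the 23 members with a single probe set, HLX, EN1 and NKX6-1 among them, no such comparison was possible.

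Among the 21 active members, 4 differed by 2 or more between lines with levels below background raised to it (19.0%), EN1, HLX, MSX1 and NKX6-1, beside 36.9% of all active genes. The median range of the 21 was 1.21, against 1.67 over all genes active in at least 1 line. A single high line that stood apart from the rest, judged by how much of the whole range lay between it and the next line, was seen in 4 of the 21 (19.0%), BARHL1, EN1, HLX and NKX6-1, beside 7.32% of all active genes. For BARHL1 the line was L-1236, only 0.52 above the next, within the spread. EN1, HLX and NKX6-1 were active in a single line, so they entered the 21 through the same high level that set that line apart. Over all measured genes, active or not, a line apart in either direction was seen in 17.1% of members and 12.3% of all genes.

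The genes beside these members on the chromosome were examined for a shared high level, as the 3 nearest measured genes on each side. In L-540 the 6 neighbours of HLX had a median of -0.28 relative to their mean over the lines, and 1 was highest there (12.8% of all genes were). In L-1236 the 6 neighbours of NKX6-1 had a median of -0.31. None of them was active there, beside 43.5% of all genes, and none was highest there, beside 22.9%. In KM-H2, 3 of the 6 neighbours of EN1 were highest, with a median of 0.35. The number was 2 of the 6 each for HHEX (median 0.37) and MSX1 (median -0.09), beside 12.9% of all genes. Of the EN1 neighbours, INSIG2 had 9.66 there and also in another line, and C2orf76 had 7.28, with 7.19 at most elsewhere. LOC101927709, the last of them, was below background at 2.83. For HHEX, MARCHF5 had 8.17 and EXOC6 7.95, with 7.75 and 7.20 at most elsewhere. For MSX1, STX18 had 7.52 there and also in another line. One of the MSX1 neighbours, STX18-AS1, was active in KM-H2 at 4.97, with 3.66 as the highest level of the other lines. HLX, NKX6-1 and EN1 themselves stood 3.99, 2.63 and 3.91 above their mean in those lines.

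The level of the members as a group is given here beside that of other low-level genes. The median of the 35 members relative to their mean over the lines was -0.20 in HDLM-2, -0.27 in KM-H2, 0.30 in L-1236, -0.05 in L-428, -0.02 in L-540, -0.09 in SUP-HD1 and -0.12 in U-HO1. Olfactory receptor probe sets had 0.30 in L-1236 too, and -0.16 to -0.00 elsewhere. The 8736 genes of low mean level had 0.25 in L-1236 and -0.14 to -0.06 elsewhere, while all genes lay between -0.06 and 0.01. L-1236 was the line above 0 in each of the low-level groups.

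**Figure D4:**
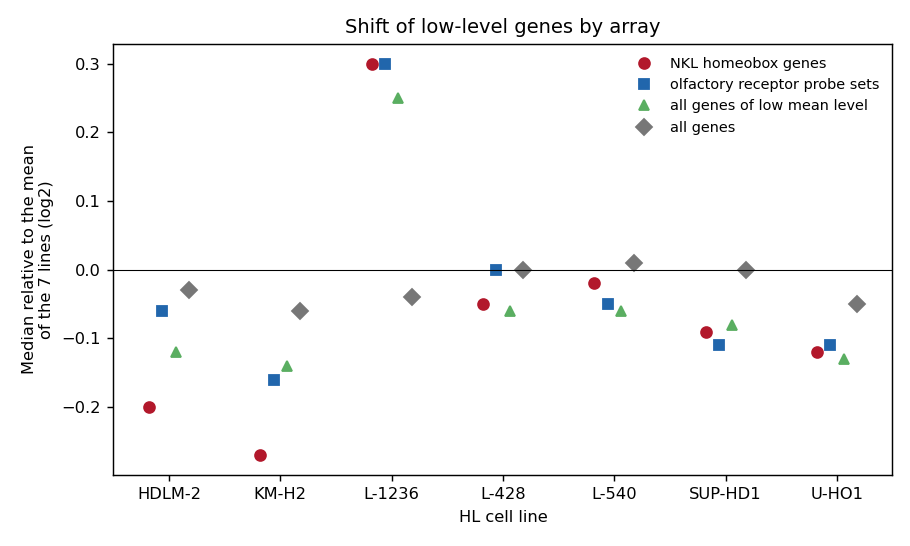
Median level relative to the mean of the 7 lines (vertical axis, log2) in each HL cell line (horizontal axis) for the 35 NKL homeobox genes (red circles), the olfactory receptor probe sets (blue squares), the genes of low mean level (green triangles) and all genes (grey diamonds). In L-1236 the members and the olfactory receptor probe sets both lie at 0.30 and all genes at -0.04.

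The TLE corepressors bind many NKL proteins. The 6 measured TLE genes were each active in at least 1 line, beside 73.3% of all genes. TLE5 alone was active in all 7, beside 34.6% of all genes. Of 8 genes listed as regulators of NKX2-2 and MSX1, 6 were measured and active in at least 1 line, beside 73.3% of all genes. DAZAP2, SMURF2, FLI1 and PCGF5 were active in all 7 lines, beside 34.6%. IL17RB, a subunit of the receptor for IL17E, was active in U-HO1 alone, at 7.24, with 3.55 to 4.63 in the other lines. This level rests on a probe set with the suffix _x_at, and any other IL17RB probe set is not given here. It also rests on the array with the high 18S rRNA level and the large 3′ to 5′ difference of ACTB, whose part in it was not tested. By RQ-PCR, the study found significant IL17RB activity among HL lines only in DEV, a line not profiled here. U-HO1 is among the HL lines the study cultured, though its text does not name the lines in that RQ-PCR. AUTS2, which acts with polycomb proteins, was at 3.03 in L-540 and 2.97 in SUP-HD1, below background, and at 7.86 to 10.19 in the others. Of 15 antisense, neighbour and pseudogene transcripts of the members, 7 were measured. Of these, 4 were active in at least 1 line, DLX6-AS1, LBX2-AS1, BARX1-DT and TLX1NB, beside 73.3% of all genes.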

How the data were processed

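Expression was profiled in 7 HL cell lines with 1 array each and no replicate. Per the methods, the authors corrected background by RMA and normalized by quantiles with the packages limma and affy (versions not given in the sources used here). Values were deposited as log2 levels, from 1.99 to 14.17 and not centred on the lines. The deposited arrays did not share 1 distribution, since their medians ran from 4.29 to 4.46, and applying quantile normalization again moved levels in L-1236. The unused value columns numbered 0.

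Probe sets were named by the platform annotation with symbols updated through RefSeq (GRCh38.p14): 41097 had 1 gene, 1801 several and 11777 none. Where a gene had several probe sets, the one highest on average over the lines gave its level. Background per array was taken from 107 olfactory receptor probe sets, at their 95th percentile. Levels below it were raised to it for ranges. Genes of low mean level were those whose mean over the lines was below the mean background. A line stood apart when the gap between it and the nearest other line, as a part of the range, exceeded the 95% critical value of Dixon.

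No test between lines was possible, so counts of members are set beside the same counts over all genes. The values were computed with Python 3.11.15, numpy 2.4.6 and pandas 2.3.3, and the steps were tested on simulated data with genes raised in 1 line. The members and gene lists were chosen with earlier results of these data known. Named genes are all members at least 1 above background in at least 1 line, and NKX2-2, NKX2-3, MSX1, HHEX and NKX6-3, which the study names. Other members were given values after these were seen. Alternatives were other background levels, other probe set rules, other scalings and leaving out L-1236 and U-HO1. Protein sequences were not analysed here.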

Additional observations from a re-analysis of the deposited data

Results flagged for a closer look

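Lines that stood apart from the rest, by the gap of the highest or lowest line to its neighbour, are listed here. Chance alone marks about 1 in 20 such groups, and 6 of the 35 members (17.1%) were marked, beside 12.3% of all genes. Among them were the members active in a single line at a level 1 or more above background: HLX at 8.96 in L-540 with 5.05 in the next line, EN1 at 7.20 in KM-H2 with 2.97 in the next, and NKX6-1 at 6.79 in L-1236 with 4.10 in the next. BARHL1 was at 6.20 in L-1236, with 5.68 in L-540. NANOG, the pluripotency factor, was low in U-HO1 at 3.42, below background, with 4.36 in the next line. VAX2, a factor of the eye, was at 4.77 in L-1236, also below background, with 3.98 in HDLM-2. At probe sets not used for the level of a gene, DLX6 was at 5.42 in U-HO1, with 2.67 in the next line, and MSX2 at 3.63 in L-1236, below background, with 2.83 in the next. The part of the array quality of L-1236 and U-HO1 in these values was not tested.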

How the results depend on the processing

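The counts of active members depend on the background level, and signal over background limits the reading of the 9 members that exceed it by less than 1. Of 56 counts per line recomputed, 39 kept within 1.5 times the value reported. With the 90th percentile as background, HDLM-2 had 13 active members and KM-H2 12, and with the 99th, HDLM-2 had 0, KM-H2 3, SUP-HD1 7 and U-HO1 6. With 59 keratin-associated protein and taste receptor probe sets as background, L-1236 had 2, L-428 5, SUP-HD1 7 and U-HO1 5. Shares over all genes were not computed under these other background levels, so a shift in these counts is not shown to be particular to the members. With a level at least 1 above background, the counts were 0 in HDLM-2, 4 in KM-H2, 1 in L-1236, 1 in L-428, 5 in L-540, 4 in SUP-HD1 and 2 in U-HO1, and 12 members were active in at least 1 line. A difference of at least 3 between lines was left to 2 members, and the same share over all genes was not computed. Without L-1236 and U-HO1, 2 members had a line apart, EN1 and HLX, and NKX6-1 and BARHL1 were lost because their line was left out. BARHL1 also lost this call with each array minus its median. The median in HDLM-2 turned from -0.20 to 0.01 with levels below background raised to it, and in KM-H2 it went from -0.27 to 0.00. In L-1236 it went from 0.30 to 0.75 with the same change, and to 0.03 with each array minus the median of its olfactory receptor probe sets. The other medians kept their sign. Of 252 recomputed levels of 12 members, 18 moved by more than 0.54, the SD of a single value, in EMX1, MSX1, NKX2-5, NKX6-1, NKX6-3 and TLX2. Of these, 6 came with the probe set of largest variance, all in EMX1, and 10 with the mean of all probe sets. The other 2 came with quantile normalization applied again, both in L-1236. Levels of members with a single probe set, or with the same one chosen, could not move under the rules for choosing a probe set. MSX1 no longer differed by 2 between lines as the mean of its probe sets, or without probe sets with the suffix _x_at or _s_at. No paired analysis was possible because the labels give 1 array to each line.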

Other observations

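LBX2-AS1, the antisense partner of a member with no probe set of its own, was active in 6 lines, with log2 levels of 5.56 to 6.15 in these and 4.29 in U-HO1, below background. BARX1-DT, a transcript that starts beside BARX1, was active in L-1236 alone, at 5.87, with 3.91 to 4.69 in the other lines, while BARX1 itself was below background in every line. TLX1NB, the neighbour of TLX1, was active in 5 lines and highest in L-540, at 5.87.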
